A study of Mus musculus with 6 samples.

Results

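Cd74, H2-Ab1 and Mrc1, genes of MHC class II antigen presentation and of brain border macrophages, were followed in the prelimbic cortex (PL) of stressed mice on bead arrays. The 3 probes were found by symbol in the study's lists of genes selected at 1.2-fold on these same arrays, which give a single symbol to 898 of 25697 probes. Each symbol had 1 probe, and all 3 were among the 13083 probes kept by a filter on detection. All 3 had been selected for their difference between CRST+RS5 and CRST, and H2-Ab1 also for its difference between CRST and CON, so those differences are given as descriptions without a test.

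CRST+RS5 mice had a daily restraint of 2 h on 14 days (CRST) and then a daily restraint of 5 min on a further 14 days (RS5). CRST mice had the 2-h restraint of 14 days without RS5, and CON mice were naive. The mice were male C57BL/6 animals aged 3 months, and PL tissue was collected on post-stress day 22. Each group had 2 arrays, each with RNA pooled from 6 to 7 animals, so the replicate is the pool and a test measures only the spread between pools.

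MHC class II molecules consist of an alpha and a beta chain and present peptides from endocytosed proteins to helper T cells. The invariant chain, encoded by Cd74, fills their groove until they reach the endosome. In the brain, class II is carried mainly by a part of the macrophages and dendritic cells of the meninges, the perivascular spaces and the choroid plexus, whose macrophages also carry the mannose receptor encoded by Mrc1, whereas parenchymal microglia have little of either at rest.

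Each array detected 12645 to 13407 probes (detection p under 0.05), with median signals of 185.6 to 230. Of 16 markers of cortical layer neurons, 10 carry a name, which they owe to the study's selection on these arrays. All 10 passed the filter, 9 of them detected on every array, which describes the samples and is no unbiased check of the tissue. Lists of olfactory mucosa and myelin genes each showed 1 array to stand apart. CRST+RS5 replicate 2 had a median of 2.11 above the CON mean on the log2 scale for the 4 genes of olfactory mucosa that passed the filter, against 0.02 on CRST+RS5 replicate 1, and CRST replicate 2 had a median of 0.87 for 23 myelin genes, against -0.23 on CRST replicate 1. For this reason the differences of the 3 genes are also given without each of these 2 arrays. Ttr, a choroid plexus marker, also varied within groups, at log2 levels of 9.08 and 11.16 in CRST and 10.21 and 7.96 in CON. In CRST+RS5 it was at 9.33 and 9.30. In bulk tissue, fewer cells of a type and less RNA per cell cannot be told apart.

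Cd74 had raw signals of 387.5 and 512.3 on the CRST+RS5 arrays, 227.6 and 267.0 on the CRST arrays, and 213.6 and 384.5 on the CON arrays. After log2 conversion and quantile normalization the levels were 8.66 and 9.02 in CRST+RS5, 7.98 and 7.86 in CRST, and 7.87 and 8.49 in CON. Both CRST+RS5 arrays were above the other 4 arrays, whereas the CRST and CON groups overlapped, with CRST replicate 2 and CON replicate 1 level at the low end. The group means were 8.84 ± 0.25 in CRST+RS5, 7.92 ± 0.08 in CRST and 8.18 ± 0.44 in CON (SD, n = 2 pools each).

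H2-Ab1, which encodes the beta chain of the class II molecule I-A, had raw signals of 401.2 and 481.8 in CRST+RS5, 247.4 and 247.1 in CRST, and 250.9 and 388.0 in CON. The normalized log2 levels were 8.71 and 8.93 in CRST+RS5, 8.11 and 7.76 in CRST, and 8.10 and 8.50 in CON. As with Cd74, the CRST+RS5 arrays were the highest. CRST replicate 1 and CON replicate 1 were level, so the CRST and CON groups touched. The group means were 8.82 ± 0.15 in CRST+RS5, 7.93 ± 0.24 in CRST and 8.30 ± 0.28 in CON (SD, n = 2 pools each).

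Mrc1 had raw signals of 370.9 and 415.2 in CRST+RS5, 232.8 and 334.6 in CRST, and 267.5 and 382.9 in CON. The normalized log2 levels were 8.59 and 8.70 in CRST+RS5, 8.01 and 8.16 in CRST, and 8.21 and 8.48 in CON. After normalization the 3 groups did not overlap for this gene, with CRST lowest and CRST+RS5 highest, whereas the raw signals of neighbouring groups overlapped. Of all probes kept, 14.3% had every CRST array below every CON array and 17.7% every CRST+RS5 array above every CON array. Neither share is a background for a gene chosen through these arrays. The group means were 8.65 ± 0.07 in CRST+RS5, 8.09 ± 0.11 in CRST and 8.34 ± 0.20 in CON (SD, n = 2 pools each).

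**Figure D1:**
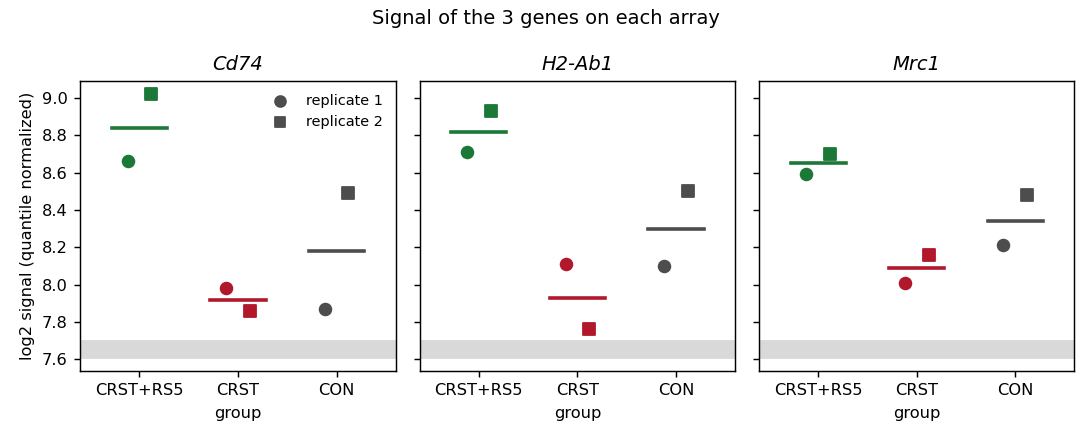
Quantile-normalized log2 signal (vertical axis) of Cd74, H2-Ab1 and Mrc1 on each array, by group (horizontal axis), with circles for replicate 1, squares for replicate 2 and a line at each group mean. The grey band spans the lowest detected log2 signal of the 6 arrays (7.609 to 7.696), and for each gene both CRST+RS5 arrays lie above the CRST and CON arrays.

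The 3 genes were dim but detected. Their detection p was under 0.05 on all 6 arrays, with a highest value of 0.00752 for Cd74, of 0.0226 for H2-Ab1 on CRST replicate 2 and of 0.00125 for Mrc1. The lowest signal counted as detected was 180.3 to 222 across the arrays, and probes that were not detected had a median signal of 138 to 161.5. No background had been subtracted here, so a fold between groups includes that background in both levels.

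The comparison of CRST+RS5 with CRST asks what the 5-min restraints changed in mice that had gone through the 2-h restraints. Cd74 was higher in CRST+RS5 by 0.92 on the log2 scale (1.89-fold, standard error 0.19), with the 4 differences between single arrays from 0.68 to 1.16. H2-Ab1 was higher by 0.89 (1.85-fold, standard error 0.15), with differences between arrays from 0.61 to 1.16. Mrc1 was higher by 0.56 (1.47-fold, standard error 0.11), with differences between arrays from 0.43 to 0.68.

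Counted from the largest increase among the 13083 probes, Cd74 ranked 24, H2-Ab1 27 and Mrc1 70. All 3 were past 1.2-fold, which is what selected them, beside 2.89% of the probes kept, and all 3 had every CRST+RS5 array above every CRST array, beside 16.9% of the probes kept. When a common median replaced the quantile normalization, 211 probes were higher and 1216 lower by 1.2-fold, against 378 higher and 229 lower after quantile normalization, and the median of all probes shifted to -0.11. The 3 genes were higher under that scaling too, Cd74 by 0.87, H2-Ab1 by 0.85 and Mrc1 by 0.51. The criterion of 1.2-fold corresponds to 0.263 on the log2 scale, and the nearest probes lay at 0.2637 and 0.2627.

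Without CRST+RS5 replicate 2, the array with olfactory mucosa transcripts, the difference was 0.74 for Cd74, 0.78 for H2-Ab1 and 0.51 for Mrc1. Without CRST replicate 2, the array with high myelin transcripts, it was 0.86 for Cd74, 0.71 for H2-Ab1 and 0.63 for Mrc1. The differences kept their direction with either array left out, each then resting on a single pool in 1 group. The 2 arrays were not left out together. Since the genes were selected on this contrast, these values are descriptions, and the part of the 2 arrays in the differences was not tested.

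The comparison of CRST with CON asks what the 2-h restraints left behind. It uses the same CRST arrays as the contrast that chose the 3 genes and is not independent of it. Mrc1 was lower in CRST by 0.26 on the log2 scale (standard error 0.11, adjusted p = 1 by limma with Benjamini-Hochberg adjustment), with the 4 array differences from -0.47 to -0.04. Cd74 differed by -0.26 (standard error 0.19, adjusted p = 1 by limma with Benjamini-Hochberg adjustment), and 1 of its 4 array differences was above 0. H2-Ab1, selected in this contrast, differed by -0.37 (0.77-fold, standard error 0.15), with array differences from -0.74 to 0.0.

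H2-Ab1 was past 1.2-fold in the lower direction, beside 0.864% of the probes kept, and Cd74 and Mrc1 were just short of it without background correction. Of Cd74 and Mrc1, 1 gene had every CRST array below every CON array, beside 14.3% of the probes kept, and neither share is a background for genes chosen through the CRST arrays. No probe of the 13083 passed an adjusted p of 0.05 in limma, and 428 had an unadjusted p under 0.05. Scaling to a common median gave 244 probes higher and 65 lower by 1.2-fold, against 102 higher and 113 lower after quantile normalization, and left differences of -0.26 for Cd74, -0.37 for H2-Ab1 and -0.24 for Mrc1.

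The differences between CRST and CON changed in size with the array left out, those of H2-Ab1 and Mrc1 staying negative. Cd74 differed by -0.57 without CON replicate 1 and by 0.05 without CON replicate 2. H2-Ab1 differed by -0.57 without CON replicate 1, -0.17 without CON replicate 2 and -0.20 without CRST replicate 2. Mrc1 differed by -0.40 without CON replicate 1 and -0.12 without CON replicate 2. The size of all 3 differences, and the sign for Cd74, thus depended on which CON array was used.

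The comparison of CRST+RS5 with CON uses the same CRST+RS5 arrays as the contrast that chose the genes and is not independent of it. Cd74 was higher in CRST+RS5 by 0.66 on the log2 scale (1.58-fold, standard error 0.19, adjusted p = 0.535 by limma with Benjamini-Hochberg adjustment). The value was 0.52 for H2-Ab1 (1.43-fold, standard error 0.15, adjusted p = 0.544 by limma) and 0.30 for Mrc1 (1.23-fold, standard error 0.11, adjusted p = 0.604 by limma). All 4 array differences were above 0 for each gene, from 0.17 to 1.15 for Cd74, 0.21 to 0.82 for H2-Ab1 and 0.11 to 0.49 for Mrc1.

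All 3 genes were past 1.2-fold, beside 2.57% of the probes kept, and all 3 had every CRST+RS5 array above every CON array, beside 17.7% of the probes kept. These shares are not a background for genes chosen through the CRST+RS5 arrays. None passed the adjusted p, nor did any probe in limma, while 1045 had an unadjusted p under 0.05. Scaling to a common median gave 219 probes higher and 430 lower by 1.2-fold, against 336 higher and 172 lower after quantile normalization, with differences of 0.62 for Cd74, 0.48 for H2-Ab1 and 0.27 for Mrc1. Leaving out CON replicate 1 lowered the difference to 0.35 for Cd74, 0.32 for H2-Ab1 and 0.16 for Mrc1, and leaving out CRST+RS5 replicate 2 gave 0.48, 0.41 and 0.25 for the same genes. Mrc1 was then below 1.2-fold in both cases.

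**Figure D2:**
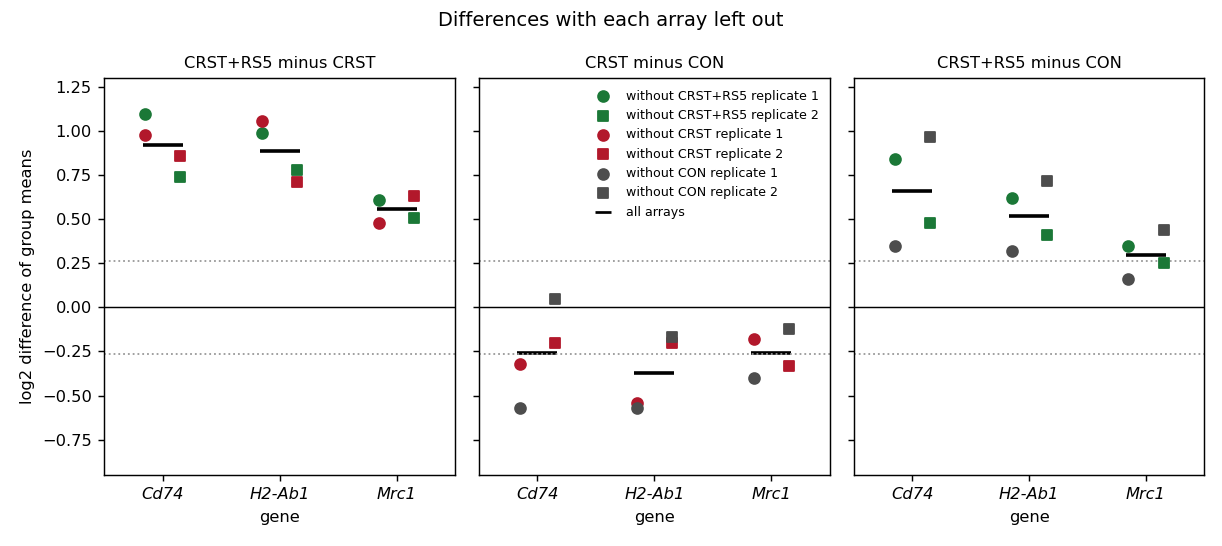
Log2 differences of group means (vertical axis) of the 3 genes in each comparison, from all arrays (black line) and without 1 array (coloured by the group of the array left out, circles for replicate 1 and squares for replicate 2), with dotted lines at 1.2-fold. The CRST+RS5 minus CRST differences run from 0.48 to 1.10, whereas in CRST minus CON Cd74 runs from -0.57 to 0.05.

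In the order of levels, CRST+RS5 was highest and CRST lowest for each of the 3 genes, with CON between. The selection had placed CRST+RS5 above CRST for each gene, and CRST below CON for H2-Ab1. The neighbours CRST+RS5 and CON did not overlap for any of the 3 genes, beside 17.7% of the probes kept with CRST+RS5 above CON. The genes were chosen through the CRST+RS5 arrays, and their differences from CON did not pass the test. The neighbours CON and CRST overlapped or touched for Cd74 and H2-Ab1. They were 0.04 apart at their closest for Mrc1, beside 14.3% of the probes kept with CRST below CON on every array.

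The 3 genes had like profiles over the 6 arrays. Pearson's r was 0.966 between Cd74 and H2-Ab1, 0.941 between Cd74 and Mrc1 and 0.907 between H2-Ab1 and Mrc1. These are descriptions over 6 points that share arrays and group differences, for genes chosen on the same contrast. H2-Eb1, the beta chain of the class II molecule I-E, had r = 0.982 with both Cd74 and H2-Ab1 and 0.89 with Mrc1.

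Each gene was then set against the other 677 named probes that were kept, all of which owe their name to the same selection. Closest to Cd74 were Tes, a cytoskeletal LIM-domain protein (r = 0.991), Lyz, a lysozyme (0.991), and Anpep, a membrane aminopeptidase (0.985). Next came H2-Eb1 (0.982) and Ifitm3, an interferon-induced membrane protein (0.979). Closest to H2-Ab1 were Tgm2, a transglutaminase (0.997), Lyz (0.989), H2-Eb1 (0.982), LOC641240 (0.981) and Gata2, a transcription factor (0.975). Closest to Mrc1 were Prelp, a proteoglycan of connective tissue (0.994), S100a11, a calcium-binding protein (0.992), Emp3, a membrane protein (0.992), Bop1, a ribosome assembly factor (0.991) and Ifitm3 (0.984). Lyz and H2-Eb1 were among the closest 5 of both class II genes, and Mrc1 shared Ifitm3 with Cd74 and none of its closest 5 with H2-Ab1.

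Of 16 genes listed for the class II pathway, 4 carry a name here, and each has it because the study selected it on these arrays, so the counts are no independent evidence of a direction. Besides Cd74 and H2-Ab1 these were H2-Eb1 and H2-Aa, the alpha chain of I-A. H2-Eb1 had normalized log2 levels of 8.21 and 8.37 in CRST+RS5, 7.86 and 7.64 in CRST, and 7.72 and 8.13 in CON. Its CRST+RS5 arrays were above the CRST arrays, beside 16.9% of all probes kept, and above the CON arrays, beside 17.7%. Its CRST and CON arrays overlapped. It differed by 0.54 between CRST+RS5 and CRST, by -0.17 between CRST and CON and by 0.37 between CRST+RS5 and CON (adjusted p = 0.612 by limma with Benjamini-Hochberg adjustment for the last).

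H2-Aa was detected on no array, with log2 values of 7.45 and 7.46 in CRST+RS5, 7.16 and 7.19 in CRST, and 7.16 and 7.23 in CON, and no fold is given. Thus the 3 class II genes kept by the filter all exceeded 1.2-fold in CRST+RS5 relative to CRST, the contrast of the selection, beside 2.89% of all probes kept, with a median of 0.89, against -0.01 over all probes kept. Between CRST and CON, 1 of the 3 was lower by 1.2-fold, beside 0.864% of all probes, and none was higher (median -0.26, against 0.0 over all probes), and between CRST+RS5 and CON 3 were higher, beside 2.57% of all probes (median 0.52, against -0.01 over all probes). None of the 3 passed the adjusted p between CRST+RS5 and CON. The count between CRST+RS5 and CRST stayed at 3 of 3 under each array left out. Ciita, Rfx5 and the other listed genes of class II control and peptide loading were not analysed here.

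The genes of the class II chains lie side by side in the MHC, in the order H2-Ab1, H2-Aa, H2-Eb1 in RefSeq. Class II promoters are known for an X box and a Y box, whose core is an inverted CCAAT, at a fixed spacing upstream of the start. The promoters of H2-Eb1 and H2-Aa are shown for this arrangement, and that of Mrc1 for contrast, as the 100 bases from 130 to 31 before the RefSeq start (GRCm38.p6), with the motifs ATTGG (or CCAAT on the other strand) and GCAAC, part of the X box, in capitals.
H2-Eb1, chr17:34305737-34305836, plus strand: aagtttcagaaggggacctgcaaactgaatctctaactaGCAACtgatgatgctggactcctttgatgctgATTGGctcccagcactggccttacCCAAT
H2-Aa, chr17:34287854-34287953, minus strand: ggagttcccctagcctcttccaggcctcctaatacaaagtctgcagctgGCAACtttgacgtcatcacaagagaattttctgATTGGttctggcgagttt
Mrc1, chr2:14229284-14229383, plus strand: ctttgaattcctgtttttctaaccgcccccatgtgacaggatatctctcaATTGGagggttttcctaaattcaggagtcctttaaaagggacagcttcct

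In H2-Eb1, GCAAC began 91 bases and ATTGG 59 bases before the start, and in H2-Aa 81 and 48 bases before it, with 27 bases between the motifs in H2-Eb1 and 28 in H2-Aa. These ATTGG copies of H2-Eb1 and H2-Aa stand in the longer word CTGATTGG, which was searched after the sequences had been read. H2-Eb1 also held the motif on the other strand, as CCAAT from 35 bases before the start, outside that word. The Mrc1 promoter held ATTGG 80 bases before the start and GCAAC only after the start, outside the bases shown. Over 32851 RefSeq promoters searched on both strands from 250 bases before to 50 after the start, 37.4% held ATTGG, 35.2% held GCAAC, 13.7% held both and 4.1% held CTGATTGG. Matches of such short words are descriptions of the sequence, and the H2-Ab1 promoter is not shown.

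Of 19 listed genes of border macrophages, 8 are named, again through that selection, and in CRST+RS5 all 8 exceeded CRST by at least 1.2-fold, a size that the selection required, beside 2.89% of all probes (median 0.52, against -0.01 over all probes). Dab2, an endocytic adaptor, had log2 levels of 9.32 and 9.26 in CRST+RS5, 8.55 and 8.74 in CRST, and 8.70 and 8.90 in CON, a difference of 0.64 between CRST+RS5 and CRST. F13a1, a subunit of a clotting factor made by tissue macrophages, had 8.13 and 8.04 in CRST+RS5, 7.44 and 7.76 in CRST, and 7.73 and 7.85 in CON, a difference of 0.49. Both genes had their CRST+RS5 arrays above the other 4 arrays, as Mrc1 did. Of all probes kept, 16.9% had every CRST+RS5 array above every CRST array and 17.7% above every CON array. These shares are not a background for genes selected through the CRST+RS5 arrays. F13a1 was detected on 5 of the 6 arrays.

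Lyz had log2 levels of 10.37 and 10.56 in CRST+RS5, 9.89 and 9.68 in CRST, and 9.80 and 10.20 in CON, a difference of 0.68 between CRST+RS5 and CRST. Lyz2 had 7.94 and 8.15 in CRST+RS5, 7.86 and 7.63 in CRST, and 7.80 and 8.07 in CON, a difference of 0.30. The mouse lysozyme genes are near-identical copies, so which of them each probe reads is uncertain. Apoe, an apolipoprotein also made by astrocytes, differed by 0.33, and Stab1, a scavenger receptor, by 0.29.

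Cbr2, a carbonyl reductase, differed by 1.23, but its levels of 7.85 and 10.10 in CRST+RS5, 7.78 and 7.72 in CRST, and 7.73 and 7.91 in CON show that only CRST+RS5 replicate 2 was high. The gene is also on the olfactory mucosa list, and without that array its difference was 0.10. Without CRST+RS5 replicate 2, 6 of the 8 genes were past 1.2-fold, with Cbr2 and Lyz2 below it. Scaling to a common median also left 6 of 8, with Apoe at 0.17 and Stab1 at 0.26. Between CRST and CON no gene of the list was past 1.2-fold in either direction (median -0.17, against 0.0 over all probes), and between CRST+RS5 and CON 5 of 8 were higher, beside 2.57% of all probes (median 0.30, against -0.01 over all probes), none of them past the adjusted p in limma.

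**Figure D3:**
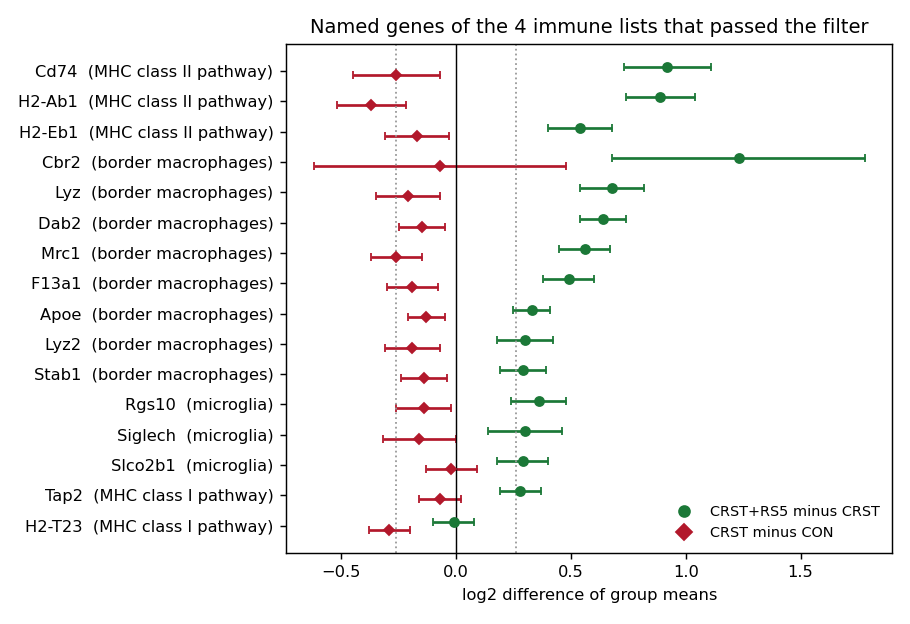
Log2 differences of group means (horizontal axis) for the named genes that passed the filter from the class II, border macrophage, microglia and class I lists (vertical axis), with circles for CRST+RS5 minus CRST, diamonds for CRST minus CON, bars for the limma standard error and dotted lines at 1.2-fold. The class II genes, selected in CRST+RS5 minus CRST, lie at 0.54 to 0.92 there. H2-T23 of class I, selected only between CRST and CON, lies at -0.01.

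Of 20 microglia markers, 3 carry a name, again through the study's selection. Rgs10, a regulator of G-protein signalling, had log2 levels of 10.52 and 10.31 in CRST+RS5, 10.06 and 10.05 in CRST, and 10.01 and 10.38 in CON. Siglech, a sialic acid-binding lectin, had 9.99 and 9.62 in CRST+RS5, 9.47 and 9.53 in CRST, and 9.45 and 9.87 in CON. Slco2b1, an organic anion transporter, had 10.82 and 10.73 in CRST+RS5, 10.61 and 10.36 in CRST, and 10.38 and 10.62 in CON. Relative to CRST the differences of CRST+RS5 were 0.36 for Rgs10, 0.30 for Siglech and 0.29 for Slco2b1. All 3 were past 1.2-fold, a size that the selection required, beside 2.89% of all probes. With a common median the differences were 0.23, 0.19 and 0.14 for the same genes, none past 1.2-fold. CRST+RS5 and CON overlapped for Rgs10 and Siglech, while both CRST+RS5 arrays of Slco2b1 were above both CON arrays, beside 17.7% of all probes, at a difference of 0.27. Tmem119, P2ry12 and Cx3cr1 were not analysed here.

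Of 18 class I genes, 4 carry a name and 2 passed the filter. H2-T23, a nonclassical class I chain, had log2 levels of 9.94 and 9.93 in CRST+RS5, 9.98 and 9.90 in CRST, and 10.33 and 10.14 in CON. The CRST+RS5 and CRST arrays overlapped and lay below both CON arrays, with differences of -0.01 between CRST+RS5 and CRST, -0.29 between CRST and CON and -0.30 between CRST+RS5 and CON (adjusted p = 0.541 by limma with Benjamini-Hochberg adjustment for the last). Tap2, a subunit of the peptide transporter encoded beside the class II genes, differed by 0.28 between CRST+RS5 and CRST, by -0.07 between CRST and CON and by 0.21 between CRST+RS5 and CON. The group means of Tap2 thus had the order of those of Cd74, and those of H2-T23 did not. H2-T23 had been selected between CRST and CON but not between CRST+RS5 and CRST. Its differences of -0.29 and -0.01 there follow from the selection, so its contrast with the class II genes is no independent result. H2-K2 was detected on 1 array and Tapbpl on none.

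Genes of the interferon response, to which class II genes also belong through interferon gamma, had 11 named members of 20 listed, of which 9 passed the filter, and all 9 were above CRST in CRST+RS5 by 1.2-fold, a size that the selection required, beside 2.89% of all probes (median 0.36, against -0.01 over all probes). Of the members outside the filter, Lgals9 was detected on 1 array and Tgtp on none. Lgals9 differed in the other direction, by -0.40 between CRST+RS5 and CRST, and Tgtp by 0.28, both near the detection limit. Ifitm3 differed by 0.61, Ifi27 by 0.53, Ifitm2 by 0.51 and Ifngr2, a chain of the interferon gamma receptor, by 0.36. Of 17 lysosomal genes and cathepsins, 6 were named and 5 passed the filter. All 5 were higher, again through the selection and beside 2.89% of all probes (median 0.34), with Ctsa and Cd63 at 0.43 each, Ctsc at 0.34 and Lamp2 at 0.31. Of 6 genes of other leukocytes that passed the filter, 3 were higher and 3 lower by 1.2-fold (median 0.01), beside 2.89% higher and 1.75% lower among all probes kept, with Faim3 at 0.57, Trem1 at -0.34, Prkcq, a kinase of T cells, at -0.33 and Cd6, a receptor of T cells, at 0.33. Faim3 had log2 levels of 7.67 and 8.53 in CRST+RS5, 7.59 and 7.48 in CRST, and 7.79 and 7.71 in CON, high only on CRST+RS5 replicate 2. None of these genes passed the adjusted p of limma between CRST+RS5 and CON.

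Markers of meningeal fibroblasts, mural cells and endothelium were also high in CRST+RS5. These too are named only through the study's selection, which fixed their counts past 1.2-fold between CRST+RS5 and CRST. Of 36 listed genes of meningeal fibroblasts, 34 carry a name, 32 were kept and 26 of the 34 were detected on every array, and all 32 exceeded CRST by 1.2-fold in CRST+RS5, beside 2.89% of all probes, with a median of 0.80. Their summed signal was 40688 and 42345 in CRST+RS5, 16236 and 22633 in CRST, and 20631 and 28753 in CON. Slc47a1, a transporter of organic cations, differed by 1.92, Ogn, a small proteoglycan, by 1.60 and Ptgds, a prostaglandin synthase of the leptomeninges, by 1.58. The sums of the 2 CRST+RS5 arrays were the highest and that of CRST replicate 1 the lowest. Choroid plexus genes went both ways. Of 12 listed, 5 carry a name and 2 were kept. Relative to CRST, 1 was higher and 1 lower by 1.2-fold, beside 2.89% and 1.75% of all probes. Wfdc2 differed by 1.57, high on CRST+RS5 replicate 2 only. Ttr differed by -0.80, with log2 levels of 9.33 and 9.30 in CRST+RS5 and 9.08 and 11.16 in CRST.

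The summed signal of the class II list was 1121 and 1336 in CRST+RS5, 761 and 649 in CRST, and 720 and 1000 in CON, and that of the border macrophage list 12546 and 13899 in CRST+RS5, 9804 and 9858 in CRST, and 10376 and 11369 in CON. Genes of mural cells (7 kept, median 0.47) and of endothelium (7 kept, median 0.38) likewise all exceeded CRST by 1.2-fold in CRST+RS5, beside the same 2.89%. On both CRST+RS5 arrays the medians of these lists were above the CON mean, at 0.55 and 0.67 for meningeal fibroblasts, 0.23 and 0.46 for mural cells, and 0.33 and 0.35 for endothelium. The part of meningeal and vascular tissue in the samples in the differences of Cd74, H2-Ab1 and Mrc1 was not tested.

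**Figure D4:**
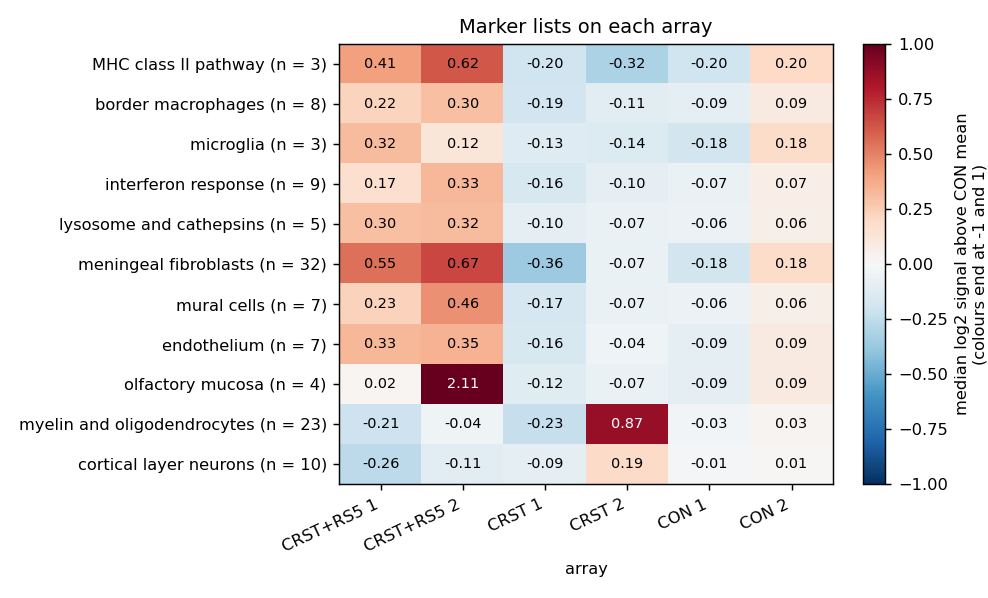
Median normalized log2 signal of the kept genes of each marker list (rows, n kept genes) on each array (columns), relative to the mean of the CON arrays and printed in each cell, with colours ending at -1 and 1. The class II list (0.41 and 0.62) and the meningeal fibroblast list (0.55 and 0.67) are high on both CRST+RS5 arrays, olfactory mucosa on CRST+RS5 replicate 2 only (2.11) and myelin on CRST replicate 2 only (0.87).

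CRST+RS5 replicate 2, the array with olfactory mucosa transcripts, was the highest array for Cd74, H2-Ab1 and Mrc1, and CRST replicate 2, the array with high myelin transcripts, was the lowest for Cd74 and H2-Ab1. Olfactory mucosa genes were at 0.02 on CRST+RS5 replicate 1, where Cd74, H2-Ab1 and Mrc1 were above every CRST and CON array. Red blood cell genes (2 kept) stood at 0.07 and 0.69 in CRST+RS5, 0.07 and -0.06 in CRST, and -0.23 and 0.23 in CON. Myelin genes were at -0.21 and -0.04 in CRST+RS5, -0.23 and 0.87 in CRST, and -0.03 and 0.03 in CON.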

How the data were processed

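RNA from the PL of the mice had been hybridised to mouse Ref-8 bead arrays. The authors read the signals with GenomeStudio 2011.1 (Gene Expression Module 1.9.0, per the submitters' processing notes) and deposited the intensity of each probe, not normalized, with a detection p-value. Whether background was subtracted is not given in the sources used here. A second deposited table holds the authors' quantile-normalized log2 values.

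Here the deposited intensities were converted to log2 and normalized by quantiles over the 6 arrays, without background correction, in R 4.3.3 with limma 3.58.1. Probes were kept where both arrays of some group had a detection p under 0.05, and the 13083 that passed were fitted with lmFit and eBayes, with Benjamini-Hochberg adjustment over all of them and a threshold of 0.05. Precision is limited by the number of arrays. Gene names came from the study's supplementary lists of selected genes, whose comparison columns were not used. Of the 898 named probes, 850 matched a RefSeq accession. No sequence of Cd74 is reported here.

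The genes, the marker lists and the rule for the other genes named were chosen with earlier results of these data known. That rule took every named member of the class II, border macrophage, microglia and class I lists, the 5 most alike named probes, and up to 4 members of each other list by the size of their difference between CRST+RS5 and CRST. H2-Ab1 and Cd74 counted as class II and Mrc1 as a border macrophage gene. The limma fit was first tested on simulated data. Alternatives covered the normalization, background, an offset of 50, the filter, each array left out and the replicate number as a block.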

Additional observations from a re-analysis of the deposited data

How the results depend on the processing

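The number of arrays, 2 per group, and the closeness of the 3 genes to the detection limit restrict all values. The difference of Cd74 between CRST and CON, -0.26, became 0.05 without CON replicate 2, the only difference of the 3 genes to turn its direction under the alternatives run. With background correction by neqc the differences between CRST+RS5 and CRST were 1.60 for Cd74, 1.56 for H2-Ab1 and 0.96 for Mrc1. Those between CRST and CON were -0.48 for Cd74, -0.73 for H2-Ab1 and -0.47 for Mrc1, all past 1.2-fold. Under neqc 690 of the 13083 probes were lower by 1.2-fold in CRST than in CON, against 113 without background correction. Between CRST+RS5 and CON the neqc differences were 1.12, 0.83 and 0.49 for the same genes. Over the arrays left out, the differences between CRST+RS5 and CRST ran from 0.74 to 1.10 (Cd74), 0.71 to 1.06 (H2-Ab1) and 0.48 to 0.63 (Mrc1), those between CRST and CON from -0.57 to 0.05, -0.57 to -0.17 and -0.40 to -0.12 for the same genes, and those between CRST+RS5 and CON from 0.35 to 0.97, 0.32 to 0.72 and 0.16 to 0.44. The adjusted p of limma ranged over the alternatives from 0.303 to 1 for Cd74, 0.385 to 1 for H2-Ab1 and 0.332 to 1 for Mrc1 between CRST+RS5 and CON, and from 0.827 to 1 for Cd74 and 0.826 to 1 for Mrc1 between CRST and CON. The number of probes past 1.2-fold was 607 between CRST+RS5 and CRST (1427 with a common median, 2040 with neqc, 863 to 1223 over the arrays left out), 215 between CRST and CON (1398 with neqc, 130 with 50 added, 372 to 823 over the arrays left out) and 508 between CRST+RS5 and CON (1928 with neqc, 567 to 1085 over the arrays left out). Of the adjusted p under 0.05 there were 0 in each comparison, and over the arrays left out 0 to 31 between CRST+RS5 and CRST, 0 to 14 between CRST and CON and 0 to 11 between CRST+RS5 and CON, and the causes were not tested. Arrays with the same replicate number deviated together with r = 0.259 for CRST+RS5 and CRST, 0.247 for CRST and CON and 0.0509 for CRST+RS5 and CON, and the study describes independent sets of the 3 groups without a label that ties a number to a set, so the numbers were not used as pairs. In a fit with the replicate number as block, 34 probes passed the adjusted p between CRST+RS5 and CRST, and 0 in the other comparisons, and the adjusted p between CRST+RS5 and CON was 0.303 for Cd74, 0.385 for H2-Ab1 and 0.332 for Mrc1. Another probe for a gene could not be tried, since each of the 3 genes has 1 named probe.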
